A study of Mus musculus with 32 samples.

Results

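The 10 genes studied here encode antiviral restriction factors or, as Cmpk2, lie beside such a gene and are induced with it. They were followed in mouse bone marrow-derived macrophages (BMDMs) in which Trex1 was deleted in culture. They were Mx1, Mx2, Rsad2, Cmpk2, Bst2, Apobec3, Ifitm1, Ifitm2, Ifitm3 and Ifitm6. They were picked by symbol, each matched 1 row of the deposited count table, and they make up 10 of its 54281 gene identifiers. BMDMs are macrophages grown from bone marrow, here for 6 days in medium conditioned by L929 cells. All cultures carried R26 CreERT2, a Cre recombinase expressed from the ubiquitous Rosa26 locus that stays inactive until 4-hydroxytamoxifen (4-OHT) binds it. In Trex1 FL/FL R26 CreERT2 cells Cre can remove both copies of Trex1, and in Trex1 WT/FL R26 CreERT2 cells a wild type copy remains, so that the control cells can lose an allele after exposure too. Cells of each genotype were left untreated or exposed to 2 µg/ml 4-OHT for 22 h, and RNA was taken on days 1, 2, 3 and 4 after exposure ended. The 16 groups held 2 libraries each, 32 in all, and the labels name no animal, culture or batch and give no age. The p-values therefore measure the spread between these libraries, which may be technical.

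Restriction factors are proteins with which a cell blocks single steps of a virus life cycle. Most are made at a low level at rest and are induced when type I interferon (IFN) binds its receptor and the kinases below it activate transcription factors that bind the IFN-stimulated response element (ISRE) in promoters. TREX1 is an exonuclease that degrades DNA in the cytosol, and without it this DNA can activate cGAS and STING and so drive IFN production. Macrophages express IFN-inducible genes even at rest. The question was when and how strongly each of these genes departed from the control cells after deletion of Trex1 was induced.

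IFN-induced genes are commonly switched on through the ISRE, so the promoters were searched for its core, GAAANNGAAA, on both strands. The windows ran from 250 bases before to 50 bases after the transcription start and came from RefSeq (GRCm38.p6). Of the 10 genes, 8 had an entry in the promoter table, with 9 promoters. The core was in a promoter of 5 of the 8 genes, and in 3.44% of all 32851 promoters in the table. In the stretches printed here, 5′ to 3′ on the gene's strand, the capitals mark the core or its reverse complement, and in Bst2 and Ifitm3 there are 2 cores, which overlap in Bst2.
Rsad2, chr12:26456543-26456592, minus strand: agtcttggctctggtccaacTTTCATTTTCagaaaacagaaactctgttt
Bst2, chr8:71537567-71537622, minus strand: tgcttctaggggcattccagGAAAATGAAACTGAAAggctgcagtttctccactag
Apobec3, chr15:79892248-79892297, plus strand: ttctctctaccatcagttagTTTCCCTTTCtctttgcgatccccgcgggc
Ifitm2, chr7:140955978-140956027, minus strand: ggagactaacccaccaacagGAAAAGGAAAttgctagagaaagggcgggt
Ifitm3, chr7:141010715-141010762, minus strand: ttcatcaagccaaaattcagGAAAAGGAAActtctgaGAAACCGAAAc

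The cores lay at different distances from the start. In Ifitm3 they covered bases 3 to 12 and 20 to 29 of the transcript, in Ifitm2 bases -46 to -37 before the start, in Rsad2 bases -120 to -111, in Apobec3 bases -140 to -131, and in Bst2 bases -130 to -121 and -124 to -115. The second element of the IFN response, the GAS core TTCNNNGAA, was in the promoters of Ifitm3, Ifitm6 and Bst2 and in 8.3% of all promoters. In Ifitm3 it overlapped the second ISRE core and in Bst2 the first. Neither core was found in the windows of Cmpk2 and Ifitm1. A match is a description of the letters and not a binding site.

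The genes fall into 3 sets of neighbours and 2 genes that stand alone. On GRCm39 with the GENCODE vM39 annotation, Ifitm2, Ifitm1, Ifitm3 and Ifitm6 lay in this order within chr7:140534738-140597837, with Ifitm1 on the plus strand and the others on the minus strand. Rsad2 (chr12:26492745-26506451, minus strand) and Cmpk2 (chr12:26519203-26529836, plus strand) were 12751 bases apart and were transcribed away from each other. Mx1 (chr16:97248235-97264107, minus strand) and Mx2 (chr16:97336508-97362100, plus strand) were 72400 bases apart. Bst2 lay at chr8:71986895-71990114 on the minus strand and Apobec3 at chr15:79775860-79800206 on the plus strand. GENCODE lists all 10 as protein-coding, while RefSeq lists Mx1 and Mx2 in GRCm38.p6 as transcribed pseudogenes. Many laboratory mouse strains carry Mx alleles that give no full-length protein, so that the values here are of RNA only.

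Some of these genes share sequence, which can limit how reads are assigned to them. Of the 31-base words in the annotated transcripts of Ifitm3, 61.7% also occurred in transcripts of other genes, chiefly of the predicted gene Gm57251. The share was 48.2% for Ifitm2, 17.7% for Ifitm1, 14.1% for Apobec3, 11.6% for Mx1 and 8.01% for Mx2, 0.836% for Cmpk2 and 0.729% for Rsad2. Bst2 and Ifitm6 shared none. For the Mx genes this sharing was chiefly with each other, since 289 of the 413 shared words of Mx1 and all 289 of Mx2 were common to both. Ifitm2 and Ifitm3 had 39 words in common. Levels of Ifitm3 and Ifitm2 may therefore be less certain than those of the others. The annotation release behind the counts is not given, so whether it held these partner genes was not checked.

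Library totals ranged from 35120505 to 63760884 counts (median 44841991). Of all genes, 15257 passed the filter on low counts in edgeR, among them all 10 members. In the study's Western blots much TREX1 protein was left on day 2, little on day 3, and none was detected on day 4. Trex1 RNA, and not protein, served as the check of the labels. It had 0 counts in 6 of 8 libraries of 4-OHT-treated FL/FL cells and 14 and 9 in the 2 libraries of day 2, against 758 to 3622 in 4-OHT-treated WT/FL cells, 1811 to 5746 in untreated FL/FL cells and 1174 to 6553 in untreated WT/FL cells. The macrophage markers Lyz2, Adgre1 and Csf1r were at least at 11134, 952 and 1313 CPM (counts scaled to the size of the library, with TMM factors) in every library. Ncr1 of NK cells and Mcpt8 of basophils were at 0 in all 32. Klrb1c of NK cells and Cpa3 of mast cells were at 0 in 14 and 20 libraries and reached 0.15 and 0.198 CPM at most. The granulocyte markers S100a8, S100a9, Ngp and Ltf were above 0 in every library, with S100a9 the highest at up to 7.99 CPM. The 2 libraries of every group varied beyond sampling noise, with a chi-square per degree of freedom of 9.55 to 21.8 for 15 pairs and 51.5 for the pair of untreated FL/FL libraries of day 1, which stood apart.

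Induced deletion of Trex1 was followed by higher levels of most of these genes from day 2 on. Compared with 4-OHT-treated WT/FL cells, 0 of 10 genes passed an adjusted p of 0.01 on day 1, and 8 were higher on day 2, 7 on day 3 and 9 on day 4 (edgeR quasi-likelihood test, adjusted over all genes tested). Over all genes the share that passed was 0.0197% in either direction on day 1, and 5.69%, 6.69% and 9.84% were higher on days 2, 3 and 4. On day 1, 2 of the 10 (Mx2 and Cmpk2) had an unadjusted p below 0.05, beside 308 of all 15257 genes, and DESeq2 called 0. The median log2 fold change of the 10 was 0.10, 0.75, 0.73 and 1.79 on the 4 days, beside -0.01, -0.01, -0.01 and -0.04 over all genes tested. With a log2 fold change above 1.5 as a second condition, the study's rule, 0 genes were called on day 1 (0.0131% of all genes in either direction). The calls were Mx1, Rsad2 and Cmpk2 on day 2, Rsad2 and Cmpk2 on day 3, and these with Mx1, Mx2, Bst2 and Ifitm6 on day 4, that is 3, 2 and 6 of 10, where 0.498%, 0.485% and 1.65% of all genes were called as higher. In bulk RNA, fewer cells that express a gene and less RNA in each cell cannot be told apart.

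**Figure D1:**
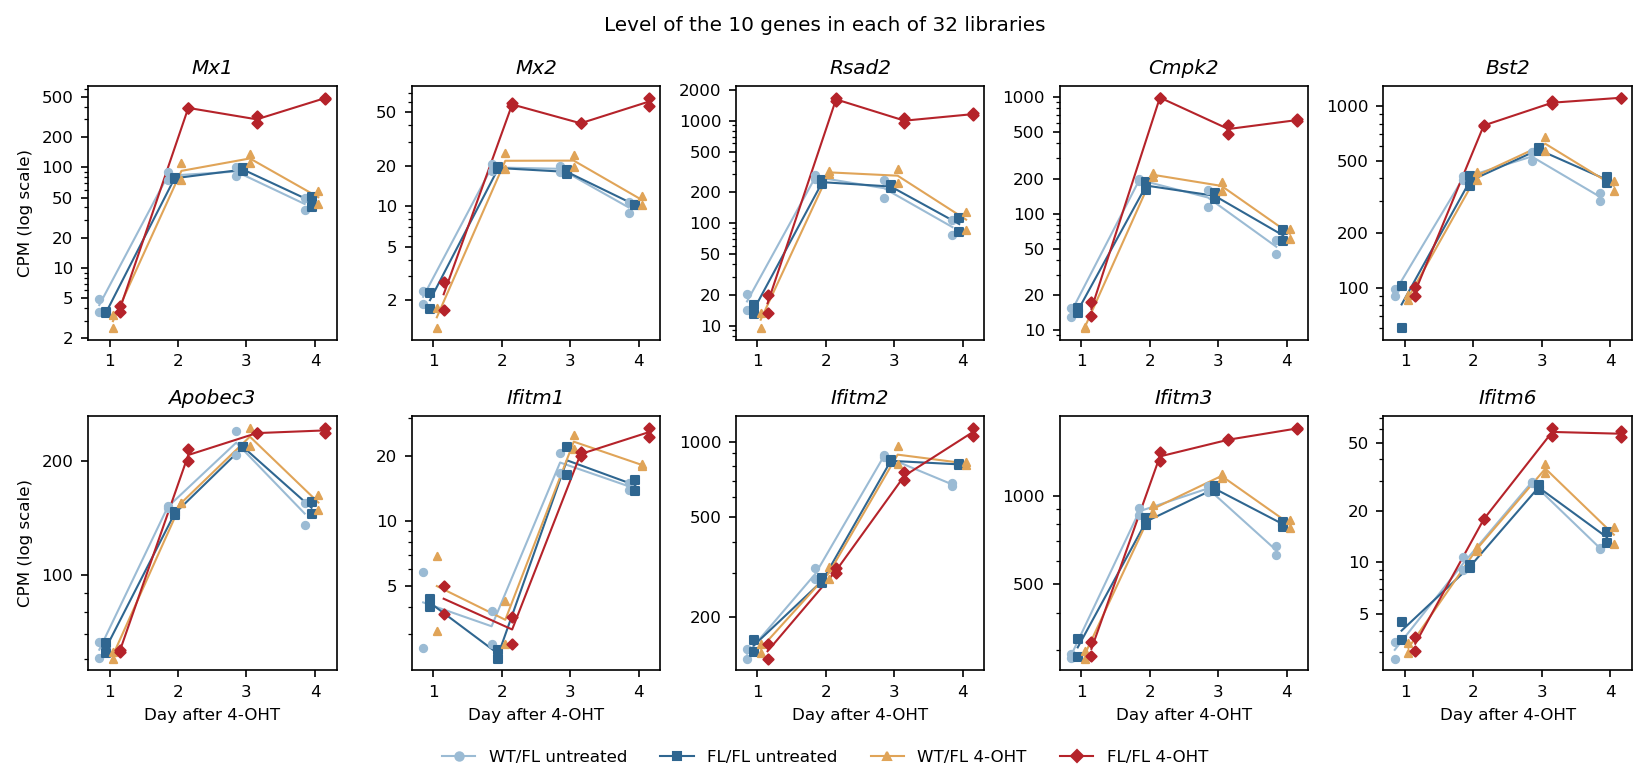
Level of each gene (CPM, log scale) on days 1 to 4 after 4-OHT, 1 panel per gene. Points are single libraries, 2 per group, and lines join the group means. On day 1 the libraries of 4-OHT-treated FL/FL cells overlap with the range of the 6 control libraries in every panel. On day 4 both lie above the 6 controls in all 10 panels, also for Ifitm1, whose difference did not pass. The share of all genes that separate in this way was not computed.

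**Figure D2:**
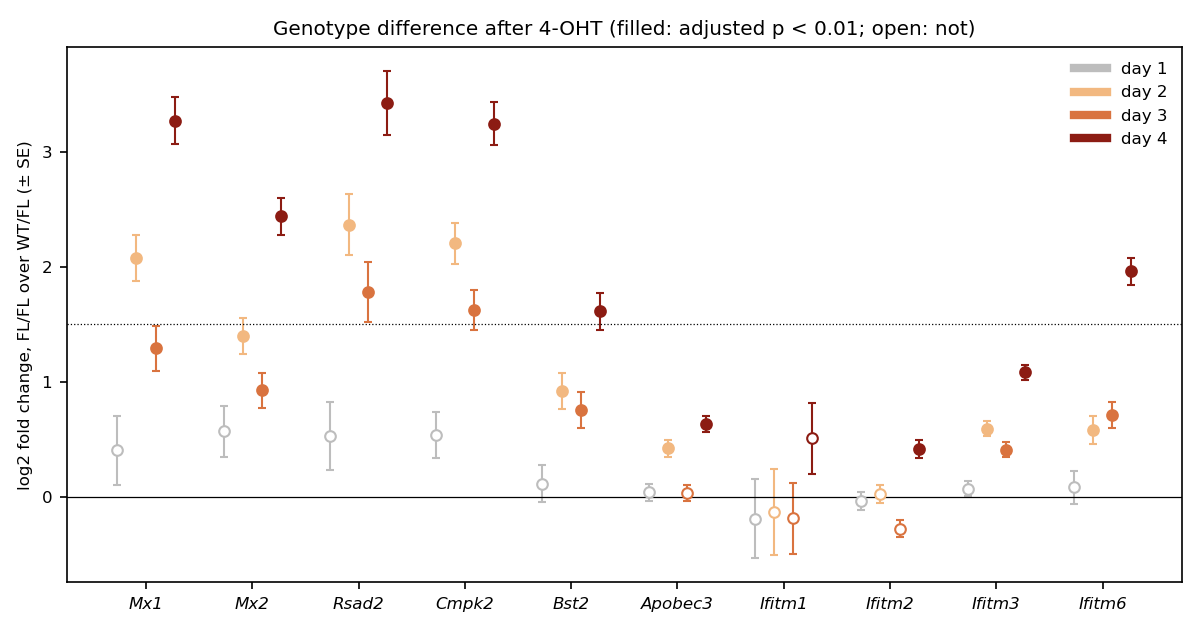
Log2 fold change of 4-OHT-treated FL/FL over 4-OHT-treated WT/FL cells for each gene on days 1 to 4, with bars of 1 standard error from the fit (2 libraries per group). Filled points passed an adjusted p of 0.01 and the dotted line marks the fold change of the calls. Mx1, Rsad2 and Cmpk2 reach 3.25 to 3.42 on day 4, whereas Ifitm1, Ifitm2 and Apobec3 reach 0.51, 0.42 and 0.63.

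The GTPases Mx1 and Mx2 are dynamin-like proteins that bind the nucleoproteins of incoming viruses. In 4-OHT-treated FL/FL cells Mx1 stood at 4.15 and 3.67 CPM on day 1, 384 and 391 on day 2, 322 and 275 on day 3 and 491 and 480 on day 4. The libraries of 4-OHT-treated WT/FL cells held 3.41 and 2.52, then 110 and 73.8, 110 and 134, and 42.8 and 57.9 CPM. The groups did not overlap on any day, though they were close on day 1, where the difference did not pass. On day 4 the FL/FL level was at its highest while the WT/FL level had fallen below that of day 2. The log2 fold changes of Mx1 for days 2, 3 and 4 were 2.08 ± 0.20 (SE), 1.29 ± 0.19 and 3.27 ± 0.21 (adjusted p = 8.42e-07, 0.000114 and 1.35e-09). Mx2 was expressed at a lower level, with 64.3 and 55.8 CPM in FL/FL and 10.2 and 12.0 in WT/FL cells on day 4, and its difference of 2.44 ± 0.16 was the fourth largest of the 10 (adjusted p = 5.45e-11). Its difference on day 2 was 1.39 ± 0.16, just under the fold change required for a call.

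Rsad2 encodes viperin, a radical SAM enzyme that turns CTP into a chain-terminating nucleotide, and its neighbour Cmpk2 encodes a mitochondrial nucleotide kinase that supplies CTP. Rsad2 gave 19.8 and 13.3 CPM on day 1 in 4-OHT-treated FL/FL cells, 1548 and 1683 on day 2, 1053 and 949 on day 3 and 1129 and 1190 on day 4. In 4-OHT-treated WT/FL cells the values were 9.44 and 13.4, 323 and 304, 244 and 337, and 86.8 and 130 CPM. Unlike Mx1, Rsad2 was highest on day 2, and the groups did not overlap from that day on. Its differences for these days were 2.37 ± 0.27, 1.78 ± 0.26 and 3.42 ± 0.28 (adjusted p = 6.2e-06, 9.67e-05 and 4.08e-08), which is 10.7-fold on day 4 and the largest of the 10 genes.

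Cmpk2 followed a course like that of Rsad2. It held 991 and 992 CPM on day 2 and 651 and 620 on day 4 in 4-OHT-treated FL/FL cells, against 225 and 206, and 60.5 and 73.5 CPM, in 4-OHT-treated WT/FL cells. The differences were 2.20 ± 0.18, 1.62 ± 0.17 and 3.25 ± 0.18 on days 2, 3 and 4 (adjusted p = 9.57e-08, 2.78e-06 and 2.51e-10). On day 3 this call depends on the first FL/FL library, since without it the difference was 1.49 and Cmpk2 was no longer called, while without the second it was 1.74. Across the 32 libraries the log2 CPM of Rsad2 and Cmpk2 correlated with r = 0.997, and those of Mx1 and Mx2 with r = 0.994. These are descriptions of libraries that share groups and days.

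Bst2 encodes tetherin, a membrane protein that holds budding virions on the cell surface. Its level was 778 and 786 CPM on day 2, 1063 and 1026 on day 3 and 1115 and 1109 on day 4 in 4-OHT-treated FL/FL cells. In 4-OHT-treated WT/FL cells it was 436 and 393, 567 and 674, and 342 and 386 CPM. The groups did not overlap on these days, and the difference was 0.92 ± 0.16, 0.75 ± 0.16 and 1.61 ± 0.16 (adjusted p = 0.000523, 0.00219 and 3.82e-07). The lowest value of Bst2 in all 32 libraries was 59.8 CPM in an untreated FL/FL library of day 1, whose partner held 102 CPM.

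Apobec3 encodes a cytidine deaminase that mutates the cDNA of retroviruses. In 4-OHT-treated FL/FL cells it held 200 and 215 CPM on day 2, 237 and 237 on day 3 and 237 and 245 on day 4. The values in 4-OHT-treated WT/FL cells were 155 and 155, 219 and 245, and 149 and 162 CPM. The FL/FL libraries were thus above the WT/FL libraries on days 2 and 4 and lay between them on day 3. The difference of 0.42 ± 0.07 on day 2 and 0.63 ± 0.07 on day 4 passed the test (adjusted p = 8.67e-05 and 5.68e-08), and that of 0.03 ± 0.07 on day 3 did not (adjusted p = 0.829).

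The IFITM proteins are small membrane proteins that keep enveloped viruses from fusing with endosomes or the cell surface, and 4 of their genes were measured here. Ifitm3, the best known of them, held 1310 and 1411 CPM on day 2, 1542 and 1560 on day 3 and 1701 and 1685 on day 4 in 4-OHT-treated FL/FL cells. The corresponding values in 4-OHT-treated WT/FL cells were 931 and 875, 1151 and 1185, and 778 and 824 CPM. The groups did not overlap on these 3 days, with differences of 0.59 ± 0.06, 0.41 ± 0.06 and 1.08 ± 0.06 (adjusted p = 1.48e-07, 3.03e-05 and 4.73e-13). The fold change of Ifitm3 was smaller than that of the Mx genes, but its standard error was also the smallest of the 10.

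Ifitm6 had low counts, and its difference on day 4 was the fifth largest of the 10. Its level in 4-OHT-treated FL/FL cells was 17.9 CPM in both libraries on day 2, 54.5 and 61.0 on day 3 and 54.3 and 58.5 on day 4. In 4-OHT-treated WT/FL cells it was 12.3 and 11.7, 37.4 and 33.2, and 12.9 and 16.1 CPM. The FL/FL level was kept from day 3 to day 4 while the WT/FL level fell, and the difference was 0.58 ± 0.12, 0.71 ± 0.11 and 1.96 ± 0.12 on days 2, 3 and 4 (adjusted p = 0.00116, 4.27e-05 and 6.73e-13).

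Ifitm2 and Ifitm1 did not follow this course. Ifitm2 held 300 and 314 CPM on day 2, 703 and 761 on day 3 and 1135 and 1051 on day 4 in 4-OHT-treated FL/FL cells. In 4-OHT-treated WT/FL cells the values were 319 and 284, 963 and 814, and 828 and 812 CPM. The groups overlapped on day 2, the FL/FL libraries were the lower ones on day 3, and they were the higher ones on day 4. Only the last of these differences passed the test, with 0.02 ± 0.08, -0.28 ± 0.08 and 0.42 ± 0.08 (adjusted p = 0.908, 0.0101 and 0.000117). Ifitm1 stood at 27.0 and 24.7 CPM in FL/FL and 18.3 and 18.1 in WT/FL cells on day 4. These libraries did not overlap, but the difference of 0.51 ± 0.31 did not pass (adjusted p = 0.25), and on days 1 to 3 it lay between -0.19 and -0.13.

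Untreated cells were then used to ask whether genotype alone moved these genes. Exposed WT/FL cells were used to ask whether 4-OHT did so without loss of both alleles. In them Trex1 was lower than in untreated WT/FL cells on every day, with 12.2 to 15.0 against 28.6 to 32.0 CPM on day 1. On day 4 it was at 47.8 to 49.0 against 78.6 to 89.9 CPM. Effects of 4-OHT and of losing 1 allele cannot be told apart here. Between untreated FL/FL and untreated WT/FL cells 0 of 10 genes passed the edgeR test on each of the 4 days. An unadjusted p below 0.05 was seen for 1, 0, 0 and 2 of them, beside 1129, 588, 468 and 2414 of all 15257 genes. Over all genes 0%, 0%, 0% and 0.0655% passed on days 1 to 4. Exposure of WT/FL cells to 4-OHT also left 0 of 10 past the threshold on each day, beside 0.00655%, 0.0918%, 0.341% and 0.216% of all genes. The unadjusted p was below 0.05 for 2, 1, 3 and 3 members and for 378, 530, 1281 and 1080 of all genes. All 10 had a log2 fold change above 0 in exposed WT/FL cells on days 2, 3 and 4. The medians were 0.11, 0.25 and 0.25, beside 0.004, 0 and 0.007 over all genes tested. Ifitm3 on day 4 came nearest to the threshold (0.30 ± 0.06, adjusted p = 0.0292). In the untreated cells of day 4 all 10 were also higher in FL/FL than in WT/FL cells, with a median of 0.15 (0.004 over all genes). On days 1, 2 and 3 this held for 5, 0 and 5 of the 10, with medians of 0.004, -0.09 and 0.02. The medians over all genes were 0.006, -0.005 and 0.005. Ifitm3 differed by 0.29 ± 0.06 between the untreated genotypes on day 4 (adjusted p = 0.0249).

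In FL/FL cells, exposure to 4-OHT left 0 genes past the threshold on day 1, where 0.0131% of all genes passed. It left 0 members at an unadjusted p below 0.05, beside 1068 of all genes. On days 2, 3 and 4 it raised 8, 7 and 9 of the 10, while 7.49%, 8.12% and 10.2% of all genes were higher. Rsad2 changed most, by 2.68 ± 0.27, 2.13 ± 0.26 and 3.57 ± 0.28. Cmpk2 followed on days 2 and 3 (2.51 ± 0.18 and 1.90 ± 0.18, and 3.29 ± 0.19 on day 4), and Mx1 on day 4 (3.41 ± 0.21, after 2.32 ± 0.20 and 1.65 ± 0.20). This comparison and the genotype difference share the exposed FL/FL libraries. Ifitm1 passed on no day (0.82 ± 0.31 on day 4, adjusted p = 0.0589).

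Whether 4-OHT acted differently in the 2 genotypes was tested by the interaction, which draws on all 8 libraries of a day. It passed for 0 of 10 genes on day 1 (0.00655% of all genes in either direction, with 0 members and 545 of all genes at an unadjusted p below 0.05). On days 2, 3 and 4 it passed for 6, 6 and 8 members, all in the direction of a larger effect in FL/FL cells, beside 3.55%, 2.65% and 5.15% of all genes in that direction. On day 4 the largest values were 3.32 ± 0.37 for Rsad2 and 3.19 ± 0.28 for Mx1, and those of Ifitm2 (0.15 ± 0.11, adjusted p = 0.426) and Ifitm1 (0.49 ± 0.44, adjusted p = 0.552) did not pass. Bst2 on day 4 was 1.30 ± 0.22 here against 1.61 in the comparison of exposed cells, which takes it below the fold change of the calls. On day 1 the results rest on the pair of untreated FL/FL libraries that stood apart. Without the library with the higher Bst2, Bst2 alone passed in the 3 day 1 comparisons that use the pair (0.68 for 4-OHT in FL/FL cells, -0.67 between untreated genotypes and 0.78 for the interaction, with adjusted p = 0.000216, 0.000285 and 0.00117 in edgeR), and without the other library 0 genes passed.

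The genes also changed with the day of culture in the 3 arms examined for it, untreated FL/FL cells being left out. From day 1 to day 2, 9 of 10 rose in untreated WT/FL cells, in 4-OHT-treated WT/FL cells and in 4-OHT-treated FL/FL cells, Ifitm1 being the exception, where 20.2%, 20.2% and 21.7% of all genes rose. In untreated WT/FL cells Mx1 rose by 4.26 ± 0.25 and Rsad2 by 4.03 ± 0.30 on the log2 scale, from 4.89 and 3.67 CPM to 90.0 and 74.4 CPM for Mx1. In 4-OHT-treated FL/FL cells the same step was 6.63 ± 0.26 for Mx1 and 6.61 ± 0.33 for Rsad2. The change of the genotype difference over this step passed for Mx1, Rsad2, Cmpk2 and Ifitm3, 4 of 10 genes, beside 2.67% of all genes in this direction. In an edgeR fit with a replicate block by run of sample titles, Mx1 (adjusted p = 0.0333) and Rsad2 (adjusted p = 0.0106) no longer passed, while Apobec3 did (adjusted p = 0.002).

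From day 2 to day 3 Ifitm1, Ifitm2 and Ifitm6 rose in all 3 arms, while Mx1, Mx2 and Rsad2 passed in none. In untreated WT/FL cells 5 of 10 rose, in 4-OHT-treated WT/FL cells 6 and in 4-OHT-treated FL/FL cells 3, where 17.1%, 17.7% and 15.1% of all genes rose. Ifitm1 had the largest step, with 2.51 ± 0.35, 2.75 ± 0.34 and 2.69 ± 0.36 in these arms, and that of Ifitm6 was 1.57 ± 0.12, 1.56 ± 0.12 and 1.69 ± 0.12. Cmpk2 fell by 0.90 in 4-OHT-treated FL/FL cells over this step (adjusted p = 0.0003). For the change of the genotype difference itself 0 of the 10 passed the edgeR test, beside 0.905% of all genes in either direction. An unadjusted p below 0.05 was seen for 5 members and for 2258 of all genes. The values were negative for 9 of the 10, with a median of -0.35, beside -0.008 over all genes tested.

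The arms parted from day 3 to day 4. In untreated WT/FL cells 9 of 10 genes fell and in 4-OHT-treated WT/FL cells 8 fell, where 6.39% and 5.93% of all genes did. In 4-OHT-treated FL/FL cells 0 fell, where 869 of all 15257 genes did. Ifitm2 alone rose there (0.58 ± 0.08, adjusted p = 5.52e-06 in edgeR), where 3.64% of all genes rose. For 10 genes both counts are near these shares. Rsad2 changed by -1.43 ± 0.26 in 4-OHT-treated WT/FL and by 0.21 ± 0.25 in 4-OHT-treated FL/FL cells, and Ifitm6 by -1.29 ± 0.12 and -0.04 ± 0.11. The genotype difference grew over this step for 8 of 10 genes, all but Bst2 (0.86 ± 0.22, adjusted p = 0.025) and Ifitm1 (0.70 ± 0.44, adjusted p = 0.452), beside 1.67% of all genes. Of these 8 genes, 7 fell in 4-OHT-treated WT/FL cells over this step. The exception was Ifitm2, whose libraries overlapped between the days in those cells (-0.12 ± 0.08, adjusted p = 0.328) and which rose in FL/FL cells.

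**Figure D3:**
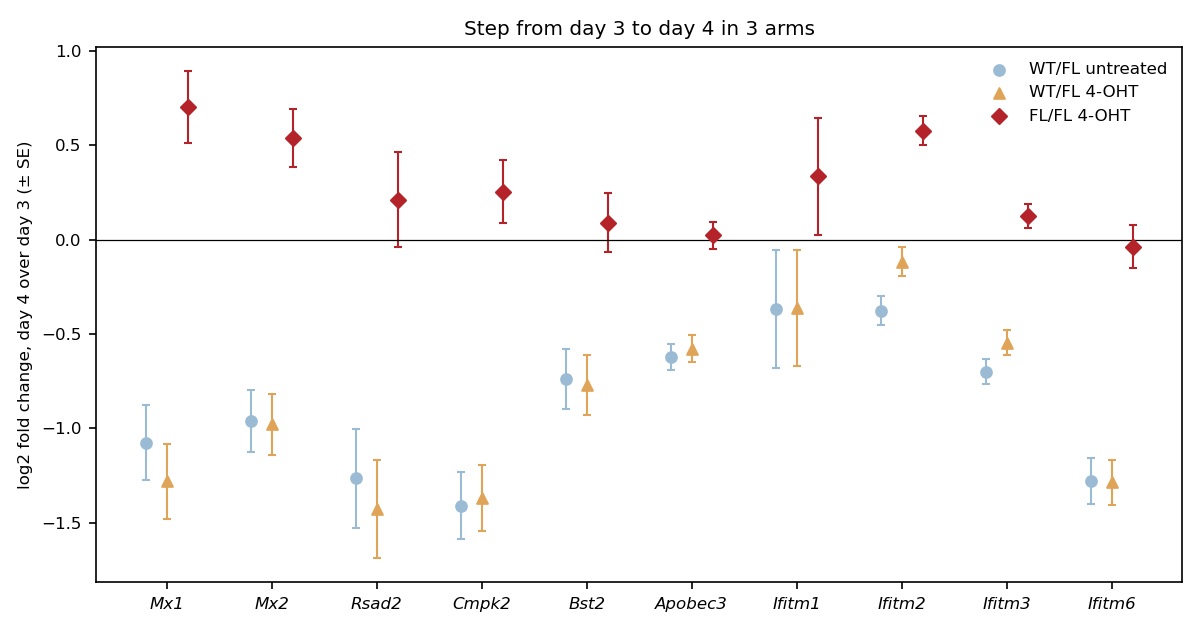
Log2 fold change of day 4 over day 3 for each gene in untreated WT/FL, 4-OHT-treated WT/FL and 4-OHT-treated FL/FL cells, with bars of 1 standard error from the fit (2 libraries per group and day). All 10 genes have values below 0 in both WT/FL arms, and in FL/FL cells the values lie between -0.04 and 0.70.

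The order of the genes by level also changed. Per kilobase of the canonical transcript, Ifitm3, Ifitm2, Bst2 and Apobec3 led on day 1 in 4-OHT-treated FL/FL cells with mean levels of 236, 148, 119 and 30.9 CPM per kb. Ifitm1, Ifitm6, Cmpk2 and Rsad2 followed with 5.87, 5.01, 4.75 and 4.37 CPM per kb and overlapped from each to the next, and Mx1 and Mx2 came last with 1.45 and 0.914. On day 4 in the same arm the order was Bst2 (1380), Ifitm3 (1326), Ifitm2 (1104), Rsad2 (307), Cmpk2 (199), Mx1 (180), Apobec3 (118), Ifitm6 (84.2), Ifitm1 (34.7) and Mx2 (24.8 CPM per kb), with no overlap between neighbours. In 4-OHT-treated WT/FL cells of day 4, Ifitm2 led with 828 CPM per kb over Ifitm3 with 627, and Apobec3 with 76.2 stood above Rsad2 with 28.6. Together the 10 genes took 0.0703% to 0.0755% of all counts on day 1 in 4-OHT-treated FL/FL cells and 0.587% to 0.591% on day 4, against 0.187% to 0.238% in the 6 control libraries of day 4.

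Ratios between neighbours within a library do not depend on library size, and they were not the same in all arms. On day 4 the libraries of 4-OHT-treated FL/FL cells held 7.65 to 8.60 counts of Mx1 for each count of Mx2, and the 6 control libraries 4.00 to 4.98. The ranges on day 2 were 6.58 to 7.00 against 3.94 to 4.45 and on day 3 6.65 to 7.79 against 4.48 to 5.68, so that they were apart on these days and together on day 1 (1.52 to 2.17 against 1.56 to 2.60). Ifitm3 outnumbered Ifitm2 by 4.37 to 4.50 in 4-OHT-treated FL/FL cells on day 2 and by 1.498 to 1.60 on day 4, against 2.79 to 3.08 and 0.916 to 1.02 in the controls. The ratio of Rsad2 to Cmpk2 was apart from the controls on day 2 (1.56 to 1.70 against 1.39 to 1.501) and day 3 (1.82 to 1.95 against 1.54 to 1.79). On day 4 it was 1.73 to 1.92 in 4-OHT-treated FL/FL cells and overlapped with the 1.43 to 1.81 of the controls. These ratios are of estimated counts, and the sequence that Mx1 and Mx2, and Ifitm2 and Ifitm3, share could affect them.

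**Figure D4:**
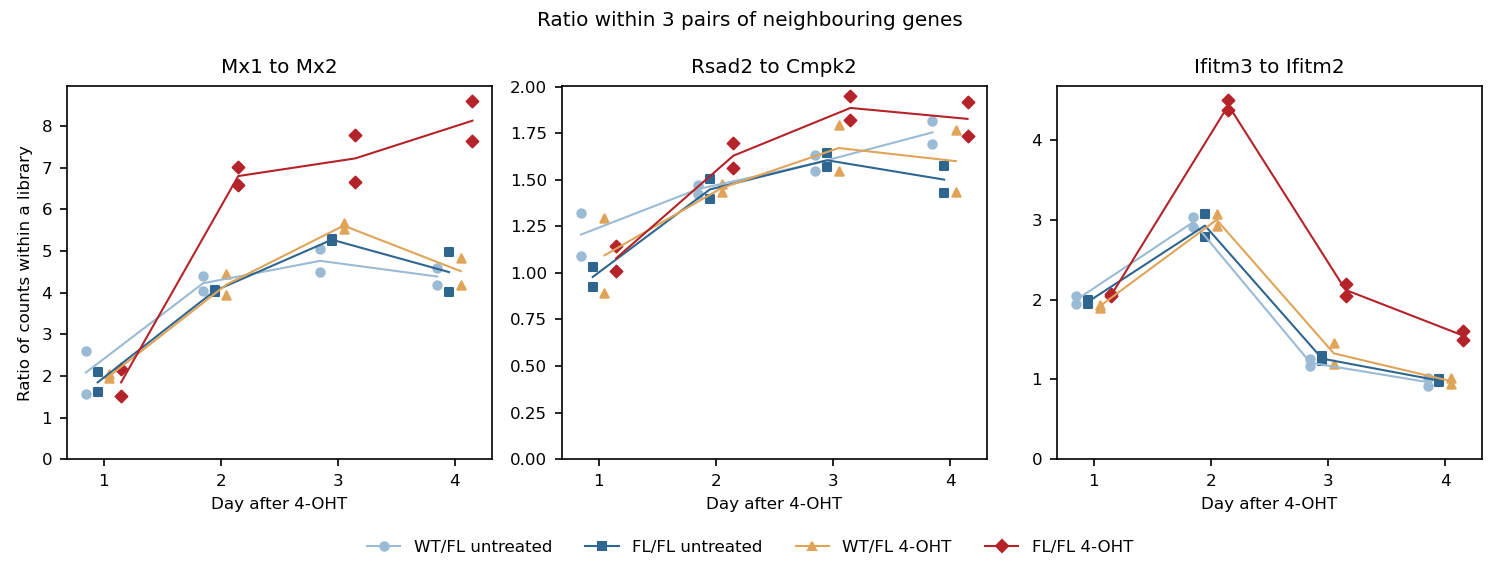
Ratio of the counts of Mx1 to Mx2, Rsad2 to Cmpk2 and Ifitm3 to Ifitm2 within each library (vertical axes from 0) on days 1 to 4 after 4-OHT. Points are single libraries and lines join the means of 2. From day 2 on, both libraries of 4-OHT-treated FL/FL cells lie above the controls for Mx1 to Mx2 and for Ifitm3 to Ifitm2, and for Rsad2 to Cmpk2 they do so on days 2 and 3 and overlap with the controls on day 4.

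Other genes of the same kind were read from lists. Of 25 further antiviral effectors, all tested, 0 passed on day 1 and 21, 19 and 21 were higher and 1, 2 and 1 lower in 4-OHT-treated FL/FL than WT/FL cells on days 2, 3 and 4, with medians of 0.70, 0.51 and 1.11. Beside them 5.69%, 6.69% and 9.84% of all genes were higher and 2.48%, 5.42% and 11.7% lower, and the medians over all genes were -0.01, -0.01 and -0.04. The largest differences on day 4 were in Ifit2 (3.38 ± 0.22), which blocks translation of viral RNA, in the exonuclease gene Isg20 (3.31 ± 0.22) and in Ifit3 (2.93 ± 0.19), a partner of other IFIT proteins. Serinc5, a membrane protein that lowers the infectivity of retroviruses, went the other way by -0.93 ± 0.09 (adjusted p = 8.82e-09). Of 6 relatives of the members 4 were tested and 1, 1 and 2 were higher on days 2, 3 and 4, namely Apobec1 (0.35 ± 0.06 on day 4), which edits RNA, and on day 4 also Cmpk1 (0.26 ± 0.08), the cytosolic kinase for CMP and UMP.

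Among 13 genes of the IFN axis 7, 5 and 8 were higher and 0, 1 and 2 lower on days 2, 3 and 4, with medians of 0.78, 0.41 and 0.97, beside the same shares of all genes. On day 4 Usp18, a brake on the IFN receptor, differed by 2.72 ± 0.12 and Irf7, a transcription factor that amplifies IFN production, by 2.38 ± 0.21, while the receptor gene Ifnar1 was lower (-0.37 ± 0.06, adjusted p = 2.62e-05). Ifnb1, which encodes IFN-β, had 18 and 12 counts in 4-OHT-treated FL/FL cells on day 2, 15 and 20 on day 3 and 12 and 14 on day 4, against 6 and 3, 2 and 3, and 0 and 0 counts in 4-OHT-treated WT/FL cells. On day 1 it had 0 counts in all 4 libraries of the exposed cells. The 5 genes outside the set whose log2 CPM was most like the members' mean z-score over the 32 libraries were Irf7 and Ms4a6c (r = 0.995 each), Samhd1 (0.995), which degrades dNTPs, the MHC class Ib gene H2-T23 (0.994) and Lgals3bp (0.992). The members, which are part of that mean, had r = 0.917 to 0.991, except for Ifitm2 with 0.857 and Ifitm1 with 0.600.

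Markers of other cells were read beside these results. The monocyte marker Ccr2, a chemokine receptor gene, was higher in 4-OHT-treated FL/FL than WT/FL cells on day 4 (1.44, adjusted p = 0.00134), and it ranged from 19.6 to 163 CPM over the 32 libraries. The difference in Ly6c2, another monocyte marker, was 0.34 on that day and did not pass (adjusted p = 0.583), and it reached 2.09 CPM at most. Both were above 0 in every library. In Ccr2 and Ly6c2 no difference passed on days 2 and 3. Of the 7 macrophage markers, Fcgr1 was higher on days 2, 3 and 4 by 1.52, 1.28 and 2.27 (adjusted p = 4.75e-09, 4.26e-08 and 1.82e-12). The log2 differences of Lyz2 on days 2 and 3 were -0.38 and -0.34, and those of Csf1r and Itgam were -0.36 and -0.34 on day 3 and -0.28 and -0.35 on day 4, all of which passed. Cd68 was higher by 0.24 on day 3, and Adgre1 and Mertk passed on none of the days. The part of these changes in the results was not tested.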

How the data were processed

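RNA of 32 libraries of BMDMs (2 genotypes, with and without 4-OHT, 4 days, 2 libraries per group) was sequenced. Salmon, run by the authors on GRCm39, assigned the reads to transcripts, and tximport gave the table of genes. What was deposited are estimated counts, all whole numbers and without normalization. FastQC 11.9 is in the submitters' processing notes, and the version of Salmon and the annotation release are not given in the sources used here. Length offsets from tximport were not used. Groups came from the labels, columns from their sample descriptions, and 0 columns belonged to no listed sample.

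Identifiers were matched to GENCODE vM39 without their version (51048 of 54281, and the rest held 0.32% of the counts). The test was the quasi-likelihood F test of edgeR 4.0.16 under R 4.3.3 (glmQLFTest after a robust glmQLFit, TMM factors, filterByExpr with a minimum count of 10, a mean for each of 16 groups, 16 residual degrees of freedom). A gene passed at a Benjamini-Hochberg adjusted p below 0.01 over 15257 genes and was called with an absolute log2 fold change above 1.5 as well. The standard error is the log2 fold change divided by the square root of its F. CPM are scaled with TMM factors, and log2 CPM for correlations used a prior count of 2. A permutation of 2 libraries against 2 cannot give a p below 0.33, so no such test was run. On simulated counts for the day 1 genotype difference (15089 genes) 197 of 200 changes of 2.5 on the log2 scale were recovered and 0 unchanged genes were called. These counts were drawn from the means and spread that the same model fitted, so recovery of changes this large was likely from the start. Smaller differences were not simulated.

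Some genes of the lists are not reported here by name. Members, lists and rules were chosen with earlier results of these data known. All members are named, with the 3 largest differences of day 4 in each list among genes that passed, the 5 genes most alike, and Trex1. Serinc5, Ifnar1, the markers and the genes beside shared words were named after their values were seen. Alternatives for the genotype difference after 4-OHT were DESeq2 1.42.0, upper-quartile or RLE factors, no filter and a minimum count of 50, fits of 16 or 4 libraries, no robust estimation, subtraction of the untreated cells, other call thresholds, the members without the Ifitm genes, and leaving out each library. Leaving out each untreated FL/FL library of day 1, and a block by run of sample titles, were added after the data were seen.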

Additional observations from a re-analysis of the deposited data

Results flagged for a closer look

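The effect of 4-OHT differed between the genotypes for the following genes (interaction in edgeR, adjusted p below 0.01), in each case with the larger effect in FL/FL cells. On day 2 the log2 difference between the effects was 2.16 for Mx1, 1.41 for Mx2, 2.54 for Rsad2, 2.37 for Cmpk2, 0.48 for Apobec3 and 0.71 for Ifitm3. On day 3 it was 1.22 for Mx1, 1.00 for Mx2, 1.73 for Rsad2, 1.57 for Cmpk2, 0.41 for Ifitm3 and 0.81 for Ifitm6. On day 4 it was 3.19 for Mx1, 2.38 for Mx2, 3.32 for Rsad2, 2.92 for Cmpk2, 1.30 for Bst2, 0.58 for Apobec3, 0.79 for Ifitm3 and 1.75 for Ifitm6.

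The difference between the genotypes after 4-OHT also changed from day to day. From day 1 to day 2 it grew by 1.68 for Mx1, 1.84 for Rsad2, 1.67 for Cmpk2 and 0.52 for Ifitm3 on the log2 scale. Mx1 and Rsad2 did not pass for this step with a replicate block by run of sample titles. From day 2 to day 3 the difference grew or fell for 0 genes in the main fit. From day 3 to day 4 the difference grew by 1.98 for Mx1, 1.51 for Mx2, 1.64 for Rsad2, 1.62 for Cmpk2, 0.60 for Apobec3, 0.69 for Ifitm2, 0.67 for Ifitm3 and 1.25 for Ifitm6. Ifitm2 is the gene here whose difference had been negative on day 3. No group held more than 2 libraries, so that none was examined for a library that stood apart from the others of its group in a single gene.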

How the results depend on the processing

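Apart from the last checks given here, the alternatives were applied to the genotype difference after 4-OHT. Of 520 values of single genes 500 kept their direction and their side of the call, and of 134 counts and medians 121 moved little. Without the 4 Ifitm genes the median log2 fold change was 0.46, 1.74, 1.11 and 2.84 on days 1 to 4. The genes left out include Ifitm1 and Ifitm2, with small differences, so a higher median was likely by construction. They also include Ifitm6 (1.96 on day 4), while Apobec3 (0.63 on day 4) was kept. With the untreated cells subtracted the median of day 4 was 1.53, and Bst2 on day 4 (1.30) lost its call. With no minimum fold change 8 genes were called on day 2 and 7 on day 3. In a fit of the 4 libraries of a comparison 1 gene was called on day 3, and Mx1 on day 2 (adjusted p = 0.0557) and Rsad2 on day 3 (adjusted p = 0.0205) lost their calls. Leaving out 1 library, where the lone library is taken to vary like the other groups, gave 0 to 0 calls on day 1, 3 to 4 on day 2, 1 to 2 on day 3 and 6 to 6 on day 4. The medians then ranged from 0.03 to 0.24, 0.70 to 0.81, 0.70 to 0.76 and 1.66 to 1.91. On day 3 the lower count came without the first 4-OHT-treated FL/FL library, which took the call from Cmpk2 (1.49), and on day 2 Mx2 (1.60) gained a call without the first 4-OHT-treated WT/FL library.

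Values that changed sign were all of differences that had not passed. With the untreated cells subtracted these were Ifitm1 on day 2 (0.30), Ifitm3 on day 1 (-0.028) and Ifitm6 on day 1 (-0.29). On leaving out a library the ranges were -0.044 to 0.11 for Apobec3 on day 3, -0.66 to 0.50 for Ifitm1 on day 1, -0.44 to 0.23 for Ifitm1 on day 2, -0.13 to 0.052 for Ifitm2 on day 1, -0.055 to 0.11 for Ifitm2 on day 2, -0.019 to 0.15 for Ifitm3 on day 1 and -0.059 to 0.21 for Ifitm6 on day 1. Leaving out an untreated FL/FL library of day 1, a check added after the data were seen, gave 0 to 1 members past the threshold in each of the 3 day 1 comparisons that use them. The labels give no replicate number and no animal, but the sample titles form 8 runs of 4 consecutive numbers, each with 1 arm over the 4 days. Differences between arms cannot be blocked by these runs. Within a run the deviations from the group means correlated with r = 0.014 to 0.14 between days, all above 0 and over 0.1 for 3 of 24 pairs of days. The main fit did not take the runs as pairs, and whether a run shares a culture is not known. A fit with the run as a replicate block, added after the data were seen, changed 5 of 120 calls in the day steps and their differences. It gave 1 gene in place of 0 for the change of the genotype difference from day 2 to day 3 (Apobec3, adjusted p = 0.00318) and 3 in place of 4 from day 1 to day 2, where Mx1 (adjusted p = 0.0333) and Rsad2 (adjusted p = 0.0106) no longer passed and Apobec3 (adjusted p = 0.002) did. With 2 libraries per group, the standard error of Ifitm1 on day 4 was 0.31, the largest of the 10 genes. The cause of the changes under each alternative was not tested.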
